A study of Mus musculus with 12 samples.

Results

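The miR-193 and miR-365 families were followed through 12 small RNA libraries of mouse skin and skin tumours. Their members were taken by name from the deposited table: miR-193a-3p, miR-193b-3p, miR-365-3p and miR-193a-5p, which are 4 of its 1251 miRNA rows. In the table they are mmu-mir-193a-3p, mmu-mir-193b-3p, mmu-mir-365-3p and mmu-mir-193a-5p. The set was selected on measured values, the levels of miR-193a-3p in tumours and skin, since these were much higher in tumours. All values of tumour against skin for these miRNAs are therefore given as a description, and tests are kept to the effect of genotype. Of the 4 members, 3 were above the lowest value of the table in at least 2 libraries and were tested, while miR-193a-5p was not. The other arms of the same hairpins, miR-193b-5p, miR-365-1-5p and miR-365-2-5p, were read alongside.

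The strain was C57Bl6 throughout, and mice were wild type (WT) or TAp63-/-. TAp63 denotes the isoforms of p63, a transcription factor of the p53 family, that carry the amino-terminal transactivation domain, and TAp63-/- mice lack them. Untreated mice aged 4 weeks gave 3 WT and 3 TAp63-/- libraries of dorsal skin. Mice older than 35 weeks, exposed to ultraviolet radiation (UVR) at 2.5 kJ per square metre 3 times a week, gave 2 WT and 4 TAp63-/- libraries of cutaneous squamous cell carcinoma (SCC). Tissue, age and irradiation change together between these groups, as do the first letters of the library titles, so their parts in a difference between skin and SCC cannot be told apart. No label says that the 12 samples came from separate mice, although each has its own source name, and p-values here measure only the spread between samples. Library numbers are in accession order and serve as names only. The table holds miRNAs alone, so the loss of TAp63 could not be checked in it.

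A miRNA hairpin is cut into a duplex, and one arm, the guide, is usually kept in an Argonaute protein while the other, the passenger, is usually degraded. The kept arm finds its targets mainly through its seed, bases 2 to 8 from the 5′ end. The miR-193 and miR-365 hairpins lie in neighbouring pairs at 2 places in the genome. The miR-193b and miR-365 pair has been studied in brown fat and muscle differentiation, and miR-193b is known to repress cyclin D1, a driver of entry into the cell cycle. In squamous carcinoma cells miR-193a-5p has been described as repressed by p63 and as targeting p73, another p53 family member.

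The mature sequences below show why the first 3 members fall into 2 families. They are from RefSeq (GRCm38.p6), written 5′ to 3′, with the seed in capitals.
miR-193a-3p: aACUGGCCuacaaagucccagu
miR-193b-3p: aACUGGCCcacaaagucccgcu
miR-365-3p: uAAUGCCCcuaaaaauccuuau
miR-193a-3p and miR-193b-3p share the seed ACUGGCC, which no other mouse miRNA name in the RefSeq table carries. Over their 22 bases they differ at 3 positions, counted from the 5′ end and with miR-193a-3p first: U9C, A20G and G21C. All 3 lie outside the seed. How many mismatches the authors' counting allowed is not given in the sources used here, so the splitting of reads between these near copies could not be checked. miR-365-3p has the seed AAUGCCC, carried by no other name in that table, and its mature sequence is the same from both of its hairpins.

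The opposite arms are shown because they separate hairpins that the 3p arms do not.
miR-193a-5p: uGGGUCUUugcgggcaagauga
miR-193b-5p: cGGGGUUUugagggcgagauga
miR-365-1-5p: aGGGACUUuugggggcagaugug
miR-365-2-5p: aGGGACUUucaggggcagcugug
The miR-365 5p arms share the seed GGGACUU but differ at U10C, G11A and A19C, with miR-365-1-5p first. A read of miR-365-3p cannot be assigned to a hairpin, whereas a read of either 5p arm can. The miR-193 5p arms differ at 5 positions, and their seeds differ as well.

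On GRCm38 (mm10), the Mir193a hairpin lies at chr11:79711969-79712034 and Mir365-2 at chr11:79726400-79726511, both on the plus strand and 14.4 kb apart. Neither overlaps another annotated gene, and the pair sits between Rab11fip4 and Utp6. Mir193b lies at chr16:13449523-13449601 and Mir365-1 at chr16:13453840-13453926, also on the plus strand, 4.2 kb apart. Both are inside an intron of Gm15738, an antisense gene on the minus strand, between Mrtfb and Parn. Within 50 kb of each hairpin RefSeq has 1 other miRNA hairpin, its partner. The chromosome 11 hairpins are printed with both mature arms in capitals, because they give the miR-193a-3p and miR-365-2-5p described below.
Mir193a: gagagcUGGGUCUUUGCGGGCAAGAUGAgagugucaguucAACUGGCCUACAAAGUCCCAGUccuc
Mir365-2: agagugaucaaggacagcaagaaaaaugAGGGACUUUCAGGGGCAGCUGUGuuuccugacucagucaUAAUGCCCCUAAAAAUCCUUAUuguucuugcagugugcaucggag

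Levels are the deposited log2 values, which were brought to the same distribution in every library, so that a level follows the rank of a miRNA within its library. The lowest value, 3.32 on the log2 scale, is shared by every miRNA set to 10 on the linear scale and is called the floor. Read depth is unknown. The number of miRNAs above the floor was 370 to 465 in skin and 402 to 545 in SCC. The mature 3p members have the same length, so their levels are set side by side without a length correction.

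miR-193a-3p, a guide arm from chromosome 11, was above the floor in all 12 libraries. On the log2 scale its levels were 7.63, 6.75 and 7.63 in WT skin and 7.72, 8.24 and 8.31 in TAp63-/- skin. In SCC they were 10.27 and 10.01 in WT and 10.84, 9.85, 11.50 and 10.30 in TAp63-/-. All 6 SCC libraries lay above all 6 skin libraries, which 57 of the 544 tested miRNAs (10.5%) also showed in the higher direction. Since this contrast chose the miRNA, nothing is read from that count.

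The group means were 7.34 ± 0.51 in WT skin (SD, n = 3), 8.09 ± 0.32 in TAp63-/- skin (SD, n = 3), 10.14 ± 0.18 in WT SCC (SD, n = 2) and 10.62 ± 0.71 in TAp63-/- SCC (SD, n = 4). The skin groups did not overlap each other, with TAp63-/- higher, which 37 of 544 tested miRNAs (6.8%) also showed. Both WT SCC libraries fell within the range of the TAp63-/- SCC libraries. The SCC minus skin difference was 2.81 in WT and 2.53 in TAp63-/-. Averaged over genotypes it was 2.67, or 6.36-fold, and stood 19th from the top among 544 tested miRNAs. In bulk tissue, fewer cells of a type and less RNA per cell cannot be told apart.

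miR-193b-3p, the chromosome 16 relative with the same seed, was abundant in every library. Its log2 levels were 11.45, 11.54 and 10.79 in WT skin and 11.40, 11.07 and 11.45 in TAp63-/- skin. They were 10.51 and 11.07 in WT SCC and 11.07, 10.06, 10.84 and 10.79 in TAp63-/- SCC. The ranges of skin and SCC overlapped, with 2 SCC libraries below every skin library. The averaged SCC minus skin difference was -0.54, or 1.46-fold lower in SCC, which stood 382nd of 544. In WT it was -0.47 and in TAp63-/- -0.62, so the averages of SCC lay below those of skin in both genotypes. Without WT SCC 1 the WT value was -0.19.

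miR-365-3p, which both loci can produce, had the smallest SD of the 3 in each tissue, 0.20 in skin and 0.36 in SCC (n = 6 each). Its log2 levels were 8.83, 9.16 and 8.68 in WT skin and 9.16, 8.76 and 8.90 in TAp63-/- skin. In SCC they were 8.83 in both WT libraries, where it held the same rank of 175, and 8.74, 8.08, 8.76 and 8.10 in TAp63-/-. Skin and SCC overlapped, and the 2 SCC libraries below all skin libraries were TAp63-/- SCC 2 and 4. The SCC minus skin difference was -0.06 in WT (0.09 with median-ratio scaling), -0.52 in TAp63-/- and -0.29 on average, 347th of 544.

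**Figure D1:**
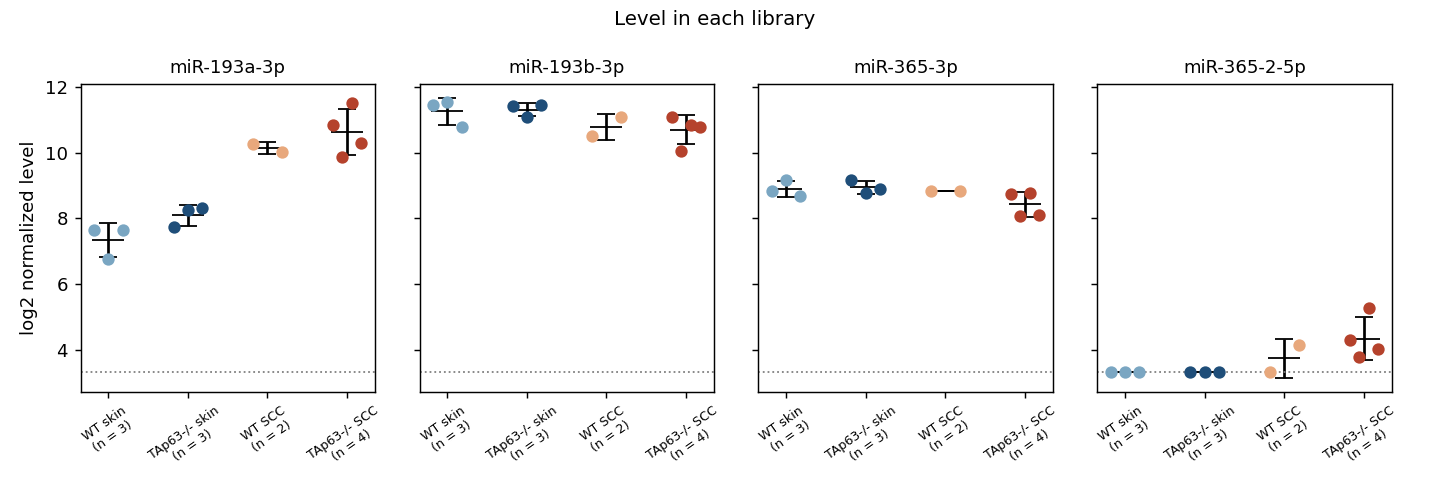
Log2 normalized level of miR-193a-3p, miR-193b-3p, miR-365-3p and miR-365-2-5p in each library, by group. Points are libraries, bars are the mean and SD, and the dotted line is the floor at 3.32. The SCC points of miR-193a-3p, from 9.85 to 11.50, all lie above its skin points, which reach 8.31, while the skin and SCC points of miR-193b-3p and miR-365-3p overlap.

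The passenger arms were mostly at the floor. miR-193a-5p was above it in 1 of 12 libraries, TAp63-/- SCC 3, at 3.35. miR-193b-5p and miR-365-1-5p were at the floor in all 12. Depth being unknown, a value at the floor does not show that the arm was absent.

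miR-365-2-5p, the passenger arm from the chromosome 11 locus, was at the floor in all 6 skin libraries and in WT SCC 1. It was at 4.15 in WT SCC 2 and at 4.29, 3.78, 5.26 and 4.03 in the TAp63-/- SCC libraries. Thus 5 of 6 SCC libraries were above all skin libraries, as for 96 of 544 tested miRNAs (17.6%). This arm passed the filter on low values only through SCC libraries, so nothing is read from that count. The highest miR-365-2-5p value and the highest miR-193a-3p value were both in TAp63-/- SCC 3, which also had the most miRNAs above the floor, 545. The part of library breadth in these low values was not tested.

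**Figure D2:**
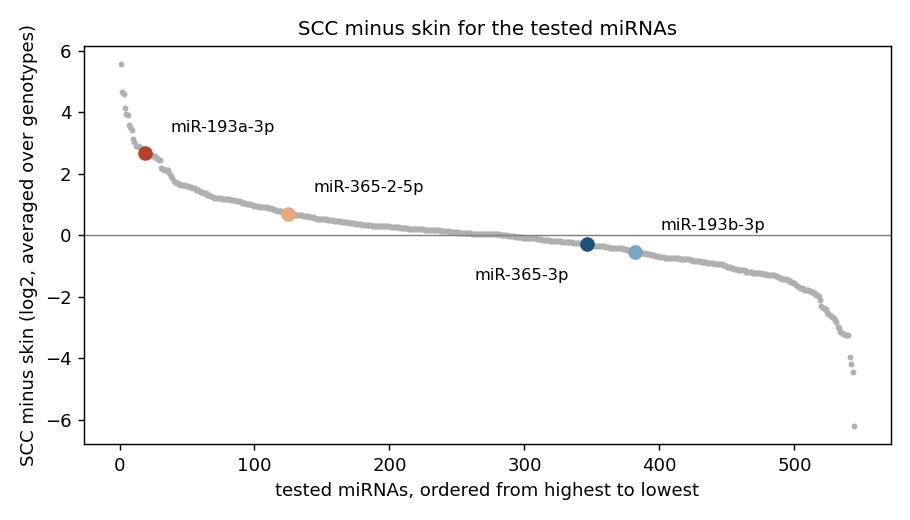
SCC minus skin difference (log2, averaged over genotypes) of the 544 tested miRNAs, ordered from highest to lowest, with each grey point a miRNA and the family members in colour. miR-193a-3p stands 19th at 2.67, miR-365-2-5p has 0.71, miR-365-3p 347th at -0.29 and miR-193b-3p 382nd at -0.54.

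Because miR-193a-3p and miR-193b-3p carry the same seed, their linear levels were added in each library. These levels follow ranks on a shared distribution, so the shares and sums are not proportions or numbers of molecules. In WT skin, miR-193a-3p made up 6.63%, 3.50% and 10.1% of the sum. In TAp63-/- skin it made up 7.25%, 12.3% and 10.2%. miR-193b-3p thus made up most of the sum in every skin library.

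In WT SCC the share of miR-193a-3p was 45.9% and 32.5%. In TAp63-/- SCC it was 46.0%, 46.3%, 61.3% and 41.6%. The mean share was 8.33% ± 3.16 in skin (SD, n = 6) and 45.6% ± 9.31 in SCC (SD, n = 6), with no overlap.

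The summed level of the seed ranged from 1963 to 3111 in skin and from 1993 to 4722 in SCC, so the tissues overlapped. The means were 2749 ± 454 in skin (SD, n = 6) and 3266 ± 963 in SCC (SD, n = 6). The lowest SCC library was TAp63-/- SCC 2 and the highest TAp63-/- SCC 3. These shares rest on the same tumour contrast that chose the members and carry no test.

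**Figure D3:**
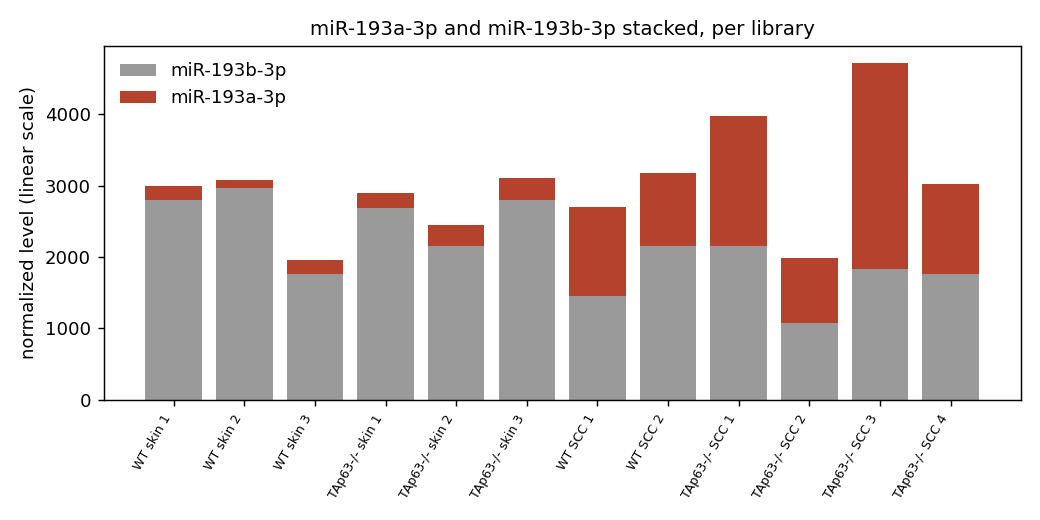
Linear normalized level of miR-193b-3p (grey) and miR-193a-3p (red) stacked for each of the 12 libraries. The miR-193a-3p part makes up 3.50% to 12.3% of the bar in skin and 32.5% to 61.3% in SCC, while the heights of skin and SCC bars overlap.

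Differences taken within a library do not depend on a constant scaling of that library. The levels here follow ranks on a shared distribution, which is not a constant scaling. These differences are therefore gaps between ranks on that distribution. miR-193a-3p minus miR-193b-3p was -3.92 ± 0.82 in WT skin (SD, n = 3) and -3.21 ± 0.43 in TAp63-/- skin (SD, n = 3) on the log2 scale. In SCC it was -0.65 ± 0.58 in WT (SD, n = 2) and -0.07 ± 0.50 in TAp63-/- (SD, n = 4). TAp63-/- SCC 3 was the library in which miR-193a-3p exceeded its relative, by 0.66, and the other 11 had it below.

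The order of miR-193a-3p and miR-365-3p turned between the tissues. miR-193a-3p was below miR-365-3p in all 6 skin libraries, by differences from -2.41 to -0.53, and above it in all 6 SCC libraries, by 1.18 to 2.73. In contrast, miR-193b-3p was above miR-365-3p in all 12 libraries, by 1.68 to 2.68. The averaged SCC minus skin change was 3.21 for miR-193a-3p over miR-193b-3p, 2.96 for miR-193a-3p over miR-365-3p and -0.25 for miR-193b-3p over miR-365-3p. The last was -0.11 without WT SCC 1 and -0.39 without WT SCC 2. By itself miR-193a-3p changed by 2.67 and miR-365-3p by -0.29. The changes that include miR-193a-3p rest on the tumour contrast that chose it. They carry no test, and nothing is read from the separation of the tissues.

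**Figure D4:**
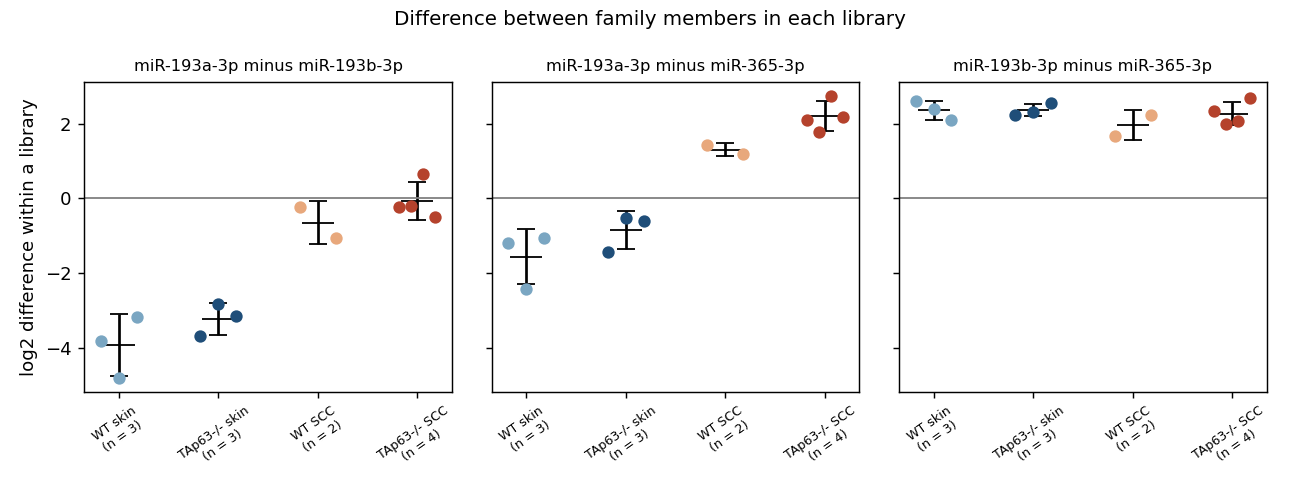
Log2 difference between pairs of family members within each library, by group, with points for libraries and bars for the mean and SD. miR-193a-3p minus miR-365-3p runs from -2.41 to -0.53 in skin and from 1.18 to 2.73 in SCC, and miR-193b-3p minus miR-365-3p stays between 1.68 and 2.68 in all libraries. The tumour contrast chose miR-193a-3p, so its gaps between the tissues carry no test.

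The effect of TAp63 loss was tested on the 3 members, since they were selected on tumours against skin and not on genotype. Earlier results of these data were known when the members and tests were chosen. None passed an adjusted p of 0.05 in skin, in SCC, averaged over both, or for the interaction, by limma with Benjamini-Hochberg adjustment over 544 miRNAs. The background was nearly as empty. In skin 0 miRNAs passed, with 31 (5.7%) at an unadjusted p under 0.05, and in SCC 1 passed (0.184%), with 46 (8.46%) unadjusted. Averaged over tissues 0 passed, with 35 unadjusted (6.43%), and for the interaction 0, with 41 unadjusted (7.54%).

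miR-193a-3p was higher on average without TAp63 in both tissues, with intervals that include 0. In skin all 3 TAp63-/- libraries, from 7.72 to 8.31, were above all 3 WT libraries, which 37 of 544 miRNAs (6.8%) also showed. The log2 difference in skin was 0.75 ± 0.42 (SE; 95% interval -0.16 to 1.67; adjusted p = 1 by limma), and the exact two-sided permutation p was 0.1, the smallest that 3 against 3 allows. Without WT skin 2, the lowest library, the difference was 0.46.

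In SCC the TAp63-/- minus WT difference of miR-193a-3p was 0.48 ± 0.44 (SE; 95% interval -0.50 to 1.45; limma adjusted p = 0.747). Its exact permutation p was 0.467, where the smallest possible is 0.0667. This value leaned on 1 library, and without TAp63-/- SCC 3 it was 0.18. Averaged over tissues the difference was 0.61 ± 0.30, or 1.53-fold (95% interval -0.05 to 1.28; limma adjusted p = 0.683; exact permutation of genotype within tissue p = 0.0833).

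For miR-193b-3p the averaged genotype difference was -0.03 ± 0.23 (SE; 95% interval -0.54 to 0.49; limma adjusted p = 0.973). Its differences were 0.05 in skin and -0.10 in SCC. For miR-365-3p the averaged difference was -0.18 ± 0.20 (SE; 95% interval -0.63 to 0.27; limma adjusted p = 0.832), with 0.05 in skin and -0.41 in SCC. The intervals reach -0.54 and -0.63 on the log2 scale, so these values do not show that genotype has no effect.

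The tumour difference itself was compared between genotypes by the interaction term. For miR-193a-3p it was -0.28 ± 0.61 (SE; 95% interval -1.61 to 1.06; limma adjusted p = 0.953). The terms were -0.15 ± 0.47 for miR-193b-3p and -0.46 ± 0.41 for miR-365-3p, with limma adjusted p of 0.976 and 0.838. A difference between WT and TAp63-/- mice in how far these miRNAs moved was not detected with these samples.

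**Figure D5:**
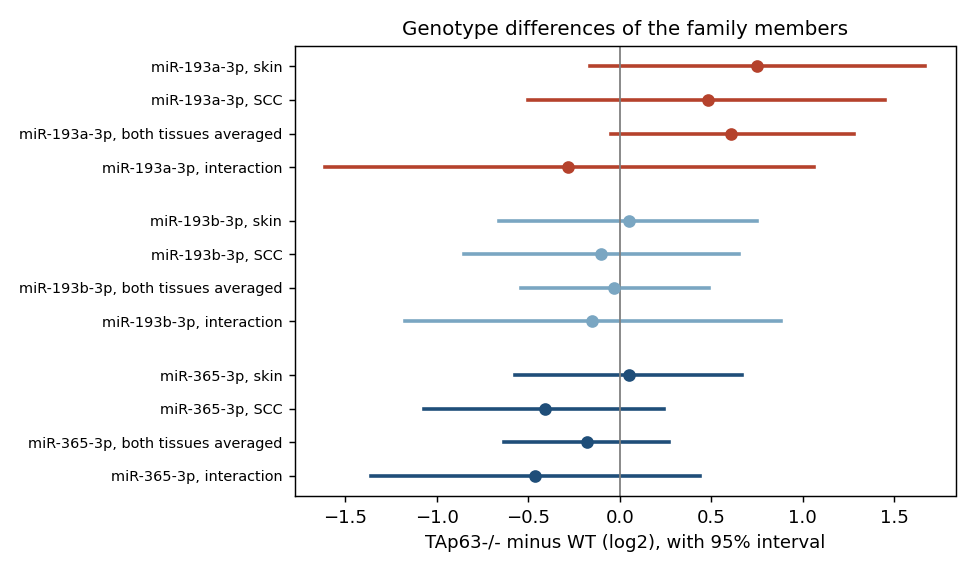
TAp63-/- minus WT difference (log2) of miR-193a-3p, miR-193b-3p and miR-365-3p in skin, in SCC, averaged over both, and the interaction. Points are limma estimates and lines their 95% intervals, all of which include 0, with miR-193a-3p averaged over tissues at 0.61 reaching from -0.05 to 1.28.

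Genotype was also compared for the 3 within-library differences, with exact two-sided permutations within tissue. miR-193a-3p minus miR-365-3p was larger in TAp63-/- libraries by 0.80 on average (p = 0.0267, adjusted p = 0.0801 over the 3 differences by exact permutation). In skin this genotype difference was 0.70 (exact p = 0.3, adjusted 0.45), with overlapping groups. In SCC it was 0.89 (exact p = 0.0667, the smallest this design allows, adjusted 0.2). miR-193a-3p minus miR-193b-3p differed by 0.64 (exact p = 0.0833, adjusted 0.125) and miR-193b-3p minus miR-365-3p by 0.16 (exact p = 0.39, adjusted 0.39), which was 0.02 without WT SCC 1 and 0.29 without WT SCC 2. None passed 0.05 after adjustment.

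Likeness to other miRNAs was described by Pearson's r of log2 levels over the 12 libraries, with no test. Over all libraries, r mixes differences between the tissues with the spread within groups. The miRNAs most like miR-193a-3p were miR-5099 (r = 0.96), miR-21a-3p (0.95), miR-872-3p (0.93), miR-5117-3p (0.93) and miR-21a-5p (0.92). Of these, miR-5117-3p was above the floor in 6 of the 12 libraries. miR-21a-5p is a widely studied tumour-associated miRNA, and miR-21a-3p is its passenger arm. Within the families, r with miR-193a-3p was 0.81 for miR-365-2-5p, -0.58 for miR-193b-3p and -0.49 for miR-365-3p. The arm miR-365-2-5p was above the floor in 5 libraries, all of them SCC, and miR-193a-3p was chosen on the tumour contrast. Nothing is therefore read from the r of 0.81.

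miR-193b-3p was most like miR-378a-5p (r = 0.90), miR-191-5p (0.86), miR-192-5p (0.84), miR-152-3p (0.79) and miR-200a-3p (0.77), and miR-365-3p came next at 0.76. For miR-365-3p the order was let-7b-5p (0.82), miR-152-3p (0.78), miR-193b-3p (0.76), miR-100-5p (0.73) and miR-125b-5p (0.72). miR-193b-3p was thus among the 6 nearest of miR-365-3p and the reverse. miR-193a-3p stood 470th in likeness to miR-193b-3p and 436th to miR-365-3p.

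After each group's mean was subtracted, so that only the spread within groups remained, r between miR-193b-3p and miR-365-3p was 0.67. It was 0.32 between miR-193a-3p and miR-365-3p, and 0.19 between miR-193a-3p and miR-193b-3p. miR-365-2-5p had r of 0.64 with miR-193a-3p, 0.59 with miR-365-3p and 0.49 with miR-193b-3p, from 5 libraries above the floor. The miRNAs nearest to miR-193a-3p were then miR-341-3p (0.78), miR-182-3p (0.78), miR-5099 (0.76), miR-3065-5p (0.72) and miR-1199-3p (0.70), of which miR-182-3p, miR-3065-5p and miR-1199-3p were above the floor in 3 libraries or fewer.

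By the same measure the nearest to miR-193b-3p were miR-378a-5p (0.86), miR-33-5p (0.85), miR-708-5p (0.80), miR-191-5p (0.79) and miR-708-3p (0.79). miR-378a is encoded within Ppargc1b, a gene of mitochondrial metabolism. The nearest to miR-365-3p were miR-100-5p (0.92), let-7b-3p (0.86), miR-3065-5p (0.83), miR-615-3p (0.82) and miR-499-5p (0.80). Of these, miR-3065-5p was above the floor in 2 libraries and miR-499-5p in 5.

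Other miRNAs linked to the same biology were read from lists, in SCC against skin averaged over genotypes, by limma with Benjamini-Hochberg adjustment. Over all 544 tested miRNAs, 228 (41.9%) differed: 111 (20.4%) were higher and 117 (21.5%) lower in SCC, with a median difference of 0.04. The higher ones made up 48.7% of these calls, and 54% with median-ratio scaling. In WT alone, 99 (18.2%) differed. No list member passed in any genotype comparison or for the interaction. Of miRNAs reported to promote brown fat, like miR-193b-3p and miR-365-3p, all 11 were tested, 3 were higher and 2 lower, with a median of 0.29. miR-455-3p rose by 1.43 ± 0.36 (SE; limma adjusted p = 0.00903) and miR-378a-5p fell by 1.24 ± 0.35 (SE; limma adjusted p = 0.0147). The other calls were miR-32-5p (0.74), miR-182-5p (0.64) and miR-203-3p (-0.60). The miR-378a-5p call was lost without WT SCC 1 (adjusted p = 0.0761), and the other 3 were lost without 2, 8 and 7 of the 12 libraries, each left out in turn. The miR-203-3p call was also lost with median-ratio scaling, among others.

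Of 8 miRNAs reported to oppose brown fat, 7 were tested, 4 were higher and 2 lower, with a median of 0.65. miR-93-5p and miR-106b-5p, from the cluster hosted in Mcm7, rose by 1.22 ± 0.17 and 1.14 ± 0.23 (SE; limma adjusted p = 2.6e-04 and 0.00237). miR-133b-3p and miR-133a-3p, which are muscle miRNAs, fell by 2.59 ± 0.32 and 2.61 ± 0.41 (SE; limma adjusted p = 1.06e-04 and 5.08e-04). miR-27a-3p and miR-27b-3p were higher by 0.65 each, the second not without WT SCC 2 (adjusted p = 0.0509). Both brown fat lists thus held members that moved in opposite directions.

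Of 11 miRNAs linked to cyclin D1, the target known for miR-193b, 10 were tested, 3 were higher and 2 lower, with a median of 0.28. miR-20a-5p and miR-17-5p, which come from 1 polycistronic cluster, rose by 1.69 ± 0.23 and 1.38 ± 0.25 (SE; limma adjusted p = 1.72e-04 and 0.00137). miR-195a-5p and miR-497-5p, which share a cluster, fell by 1.42 ± 0.26 and 0.74 ± 0.19 (SE; limma adjusted p = 0.00138 and 0.00997). miR-15b-5p was higher by 0.89. Without WT SCC 1 the calls of miR-497-5p (adjusted p = 0.0533) and miR-15b-5p (0.0645) were lost.

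Of 12 miRNAs linked to the p53 family, all were tested, 1 was higher and 2 lower, with a median of -0.07. miR-205-5p, a keratinocyte miRNA, rose by 1.55 ± 0.19 (SE; limma adjusted p = 1.06e-04). miR-192-5p fell by 0.73 ± 0.21 (SE; limma adjusted p = 0.0177), a call lost without WT SCC 1 (adjusted p = 0.0955). miR-203-3p, which restrains proliferation as keratinocytes differentiate, was the third.

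Some markers of cells that skin and SCC could hold differed between the tissues, as miR-193a-3p did. The summed linear level of 8 keratinocyte miRNAs, the defining markers of the labelled tissue, was 330000 to 457000 in skin and 318000 to 635000 in SCC, so it overlapped, with 1 higher and 2 lower by limma. That of 5 striated muscle miRNAs was 66500 to 90100 in skin and 4750 to 31500 in SCC, with 4 of 5 lower. The fifth, miR-499-5p, was at the floor in all skin libraries and went the other way. Its SCC minus skin difference was 1.20 averaged (limma adjusted p = 0.11, not passing), 0.41 in WT and 1.99 in TAp63-/-. In TAp63-/- it passed as higher, at a limma adjusted p that rounds to 0.05. This miRNA passed the filter on low values only through SCC libraries, so nothing is read from that call. The 2 melanocyte miRNAs summed to 2330 to 6500 in skin and 88.4 to 1700 in SCC, both lower. Their part in the levels of miR-193a-3p, miR-193b-3p and miR-365-3p was not tested.

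The other marker sums overlapped between tissues for 6 leukocyte miRNAs, at 31800 to 39100 in skin and 17300 to 65300 in SCC, and for 4 red cell miRNAs, at 35200 to 75000 and 17100 to 98200. Of the leukocyte miRNAs 5 were tested, with 2 higher and 1 lower by limma. Of the 4 red cell miRNAs, miR-451a was higher by 2.61 and miR-144-3p by 2.14 (limma adjusted p = 0.00126 and 0.00178). miR-144-5p (1.04) and miR-486-5p (-0.69) did not pass, and miR-486-5p had the highest mean level of the 4, at 15.09 on the log2 scale. The sums of 2 endothelial miRNAs were 47400 to 63000 and 59900 to 92500, which overlap, with miR-126-5p higher by 0.50 (limma adjusted p = 0.0324). Those of 4 neural miRNAs did not overlap, with medians of 715 in skin and 317 in SCC. Among all 544 tested miRNAs, 117 (21.5%) were lower in SCC by limma. The share that lay wholly lower in SCC is not given here. Nothing is therefore read from this gap, or from the gaps of the striated muscle and melanocyte sums. Of the 3 neural miRNAs tested, miR-128-3p (-1.23) and miR-9-5p (-1.72) were lower and miR-219-5p (0.90) was higher by limma.

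Some marker sums did not overlap between genotypes. In skin, 37 of 544 single miRNAs (6.8%) also lay wholly higher in TAp63-/-, so nothing is read from such gaps. The sum of 5 stromal miRNAs was 215000 to 371000 in WT skin and 419000 to 692000 in TAp63-/- skin. It was carried by miR-143-3p, a smooth muscle and fibroblast miRNA, whose TAp63-/- minus WT difference in skin was 1.33 ± 0.43 (SE; limma adjusted p = 0.467). The other 4 stromal miRNAs had differences from -0.18 (miR-145a-5p) to 0.20 (miR-199a-5p). The endothelial sum was 53300 to 63000 in WT skin and 47400 to 53100 in TAp63-/- skin. The neural sum reached 709 in WT skin and began at 721 in TAp63-/- skin. Both gaps were narrow. In skin miR-126-3p and miR-126-5p differed by -0.17 and -0.15. The tested neural miRNAs differed by -0.10 (miR-9-5p), -0.03 (miR-219-5p) and 0.38 (miR-128-3p). In SCC the melanocyte sum was 349 to 1700 in WT and lower in all TAp63-/- libraries, with a median of 149, and the stromal sum was 236000 to 273000 and 177000 to 436000. No marker passed in a genotype comparison by limma, and their part in the genotype differences of miR-193a-3p was not tested. Between tissues, 1 of the 5 stromal miRNAs passed, with miR-199a-5p at -1.14 in SCC minus skin (limma adjusted p = 0.00621). miR-155-5p, miR-124-3p and the liver marker miR-122-5p were not above the floor in the 2 libraries needed for a test. The lists held no marker of fat cells.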

How the data were processed

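Small RNA of frozen dorsal skin and SCC was measured in 12 libraries. The authors deposited log2 values for 1251 miRNAs. The build was mm10 (submitters' processing notes), and the aligner, its version, the mismatch setting and the counter were not given in the sources used here. The columns hold nearly the same sorted values, so they were quantile normalized upstream, with a floor at 10 on the linear scale, where each library sums to 6065014 to 6065621. Depth is therefore unknown, and a level reflects rank.

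A row was left out where it was at the floor in every library (647 rows) or above it in 1 (60 rows). The remaining 544 were fitted in limma 3.58.1 (R 4.3.3) with a mean per group (8 residual degrees of freedom), moderated variances with the trend and robust options, and Benjamini-Hochberg adjustment over the 544, with 0.05 as the threshold. The fit was tested on simulated data. Single values were also compared by exact permutation of genotype. Folds are 2 to the power of a log2 difference. Since the values were normalized, no count model was run.

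Members, lists and tests were chosen with earlier results of these data known. Named miRNAs are the members and other arms of their hairpins, the 5 most correlated with each member by both measures, and up to 4 per list with the smallest p. Beyond these, the remaining calls of the lists and single marker miRNAs are named as well. Sequences, hairpin positions and neighbouring hairpins came from RefSeq (GRCm38.p6), where all 7 mature names were found. Overlapping and neighbouring genes came from GENCODE on GRCm38, the build of mm10. Alternatives changed the pseudocount, the filter, the scaling, the variance model, the libraries in the fit and the test, and left out each library in turn.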

Additional observations from a re-analysis of the deposited data

How the results depend on the processing

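The 3 tested members passed the threshold in no genotype comparison or interaction under any alternative run, and the lowest adjusted p was 0.0922, for miR-193a-3p in skin with library quality weights. miR-193a-3p kept its direction in skin (0.72 to 0.94 over the alternatives, 0.46 to 0.94 with a library left out) and in SCC minus skin (2.61 to 2.79, and 2.52 to 2.80). In TAp63-/- against WT SCC it was 0.18 to 0.73 with a library left out. Library quality weights turned the sign of miR-193b-3p in skin (-0.15) and in the interaction (0.05) and of miR-365-3p in skin (-0.09). With a library left out, signs turned for miR-193b-3p in skin (-0.19 to 0.19), in SCC (-0.38 to 0.18), averaged (-0.17 to 0.11) and in the interaction (-0.43 to 0.13), for miR-365-3p in skin (-0.06 to 0.18), and for miR-193a-3p in the interaction (-0.57 to 0.02). The cause was not tested.

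Counts of miRNAs that differed by genotype varied with the setting. In skin the count rose from 0 to 22 with library quality weights and was 0 to 2 with a library left out (2 without TAp63-/- skin 3). In SCC it went from 1 to 0 with the stricter filter of 6 libraries above the floor, to 0 with only the groups compared in the fit, to 2 without the trend and robust options, and to 1 to 13 with a library left out. It was 13 without WT SCC 2, 3 without TAp63-/- SCC 3 and 2 without WT SCC 1 or TAp63-/- SCC 2. With a library left out the averaged count was 0 to 10 and the interaction count 0 to 11, both highest without WT SCC 2. Leaving out a WT SCC library leaves 1, which is assumed to vary like the other groups. SCC against skin in WT gave 99 (18.2%), 62 with only the groups compared, and 32 to 118 with a library left out (32 without WT SCC 1, 61 without WT skin 2, 65 without WT skin 1). Median-ratio scaling moved the median of all tested miRNAs in SCC against skin from 0.04 to 0.16. For genotype, no paired analysis was possible because the title numbers run on through each tissue and repeat in no other group of it. Across tissues WT shares 2 numbers and TAp63-/- 3, on samples with different source names. Their deviations from group means correlated by -0.15 to 0.07, and 3 of 5 skin libraries correlated best with their own number. The deviations of the 2 WT SCC libraries mirror each other, so this check cannot settle pairing. Title number 3 is WT in skin and TAp63-/- in SCC, and the source names differ, so the numbers were not taken as pairs. With the number as a replicate block, chosen after seeing the data, over those 10 libraries (3 residual degrees of freedom), SCC against skin gave 164 calls averaged and 48 in WT, against 228 and 99, and 22.4% of miRNAs in TAp63-/-, against 34.2%. miR-193a-3p was then at 2.71 averaged. Unknown depth limits what the floor values of the passenger arms can show.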
